A study of Mus musculus with 5 samples.

Results

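The genes described here are 33 genes that drive or mark cell division, taken from a table of 33589 rows by their symbols. They fall into 11 genes of DNA replication, 17 genes of mitosis and 5 genes of G1 control, the decision to enter the cycle. Each of the 33 symbols had exactly 1 row. RNA was sequenced from mouse liver in 5 libraries, all from male mice, 6 weeks old when put on a high-fat diet that lasted 4 weeks. The 2 controls carried the Hegfl/fl genotype, a floxed Heg1 gene without Cre. The 3 knockouts carried Lyve1-Cre;Hegfl/fl, in which Cre is expressed from Lyve1, a gene of lymphatic and liver sinusoidal endothelial cells. The controls have no Cre, so an effect of Cre itself and of the Heg1 deletion cannot be told apart. The series title speaks of hepatocytes and the labels of liver, and the values are read here as those of whole liver.

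Dividing cells first assemble the MCM2-7 helicase on DNA, then copy the genome behind the sliding clamp PCNA with nucleotides made by ribonucleotide reductase, thymidylate synthase and thymidine kinase. Mitosis is then run by cyclin B with CDK1, the Aurora and Polo kinases, the spindle checkpoint and kinesin motors. Entry into the cycle is set in G1 by D- and E-type cyclins, E2F factors and inhibitors such as p21, the product of Cdkn1a. Adult hepatocytes are mostly quiescent and divide after injury or loss of tissue, so transcripts of mitotic genes are scarce in resting liver.

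Replication and mitosis genes are known to be switched on at different points of the cycle. E2F sites are typical of promoters active at the start of S phase, and a CHR element beside CCAAT boxes, which bind NF-Y, of promoters active in G2 and mitosis. Promoter windows of RefSeq (GRCm38.p6, 250 bases before to 50 after a start) matched 27 of the 33 genes by symbol, with 29 windows. They were searched on both strands for TTTGAA or TTCGAA (CHR), for TTTCGCGC, TTTGGCGC, TTTCCCGC or TTTGCCGC (E2F) and for CCAAT (NF-Y). CHR letters stood in 11 of 14 mitosis genes (78.6%) and in 2 of 10 replication genes (20.0%), against 21.7% of all 27025 genes with a window. E2F letters stood in 4 of 10 replication genes and in 1 of 14 mitosis genes, against 2.61% of all genes. CCAAT stood in 13 of 14 mitosis and 8 of 10 replication genes, against 41.1% of all genes. The 3 G1 genes with a window, Ccne1, Cdkn1a and E2f1, held none of these letters in the windows searched. The E2f1 window (chr2:154569377-154569676, minus strand) lies inside the gene, whose annotated start is at 154569892. The bases before that start were not searched, so the lack of E2F letters does not cover them. Both windows of Mcm7 (the farther ending at 138172133) also lie inside the gene, whose annotated start is at 138172422. Some other windows, such as those of Tk1 and Pcna, reach fewer than 250 bases before the annotated start. The counts cover only the bases searched. A match is a run of letters and no measure of binding, and E2F letters can overlap each other, as in Mcm6.

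The 4 windows below are shown because they set 2 replication genes, Tk1, the most abundant of the 33 genes, and Mcm6, beside 2 mitotic genes of lower level, Cdk1 and Cdc20. Capitals mark matches to any of the 3 motifs on either strand. Mcm6 (chr1:128359656-128359955, minus strand) holds 3 E2F matches, 2 of them overlapping, and 2 CCAAT boxes read on the opposite strand. Tk1 (chr11:117825965-117826264, minus strand) holds no match. Cdk1 (chr10:69352863-69353162, minus strand) holds 2 CHR, 1 E2F and 3 NF-Y matches. Cdc20 (chr4:118437294-118437593, minus strand) holds 1 CHR match between 2 CCAAT boxes.
Mcm6: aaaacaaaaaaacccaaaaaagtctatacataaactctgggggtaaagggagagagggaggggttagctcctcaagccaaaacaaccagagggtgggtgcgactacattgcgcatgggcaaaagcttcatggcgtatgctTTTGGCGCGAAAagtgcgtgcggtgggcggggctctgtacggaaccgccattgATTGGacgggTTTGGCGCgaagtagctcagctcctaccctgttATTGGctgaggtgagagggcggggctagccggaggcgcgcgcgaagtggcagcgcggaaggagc
Tk1: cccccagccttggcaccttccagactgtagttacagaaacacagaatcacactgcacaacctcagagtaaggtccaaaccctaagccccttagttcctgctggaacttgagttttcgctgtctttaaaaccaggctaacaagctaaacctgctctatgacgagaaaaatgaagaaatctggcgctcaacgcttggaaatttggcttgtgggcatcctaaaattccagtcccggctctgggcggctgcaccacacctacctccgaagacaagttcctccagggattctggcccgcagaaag
Cdk1: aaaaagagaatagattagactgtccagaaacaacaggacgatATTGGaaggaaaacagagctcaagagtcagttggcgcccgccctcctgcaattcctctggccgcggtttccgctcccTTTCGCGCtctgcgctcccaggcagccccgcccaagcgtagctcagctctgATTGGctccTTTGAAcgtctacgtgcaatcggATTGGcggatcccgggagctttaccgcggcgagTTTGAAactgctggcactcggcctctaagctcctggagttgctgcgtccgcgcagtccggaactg
Cdc20: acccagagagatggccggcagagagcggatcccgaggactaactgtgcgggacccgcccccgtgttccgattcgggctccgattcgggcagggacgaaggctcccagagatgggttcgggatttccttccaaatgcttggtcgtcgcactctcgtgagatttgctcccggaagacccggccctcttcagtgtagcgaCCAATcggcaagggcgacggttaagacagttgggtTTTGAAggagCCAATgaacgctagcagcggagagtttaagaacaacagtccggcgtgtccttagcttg

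**Figure D1:**
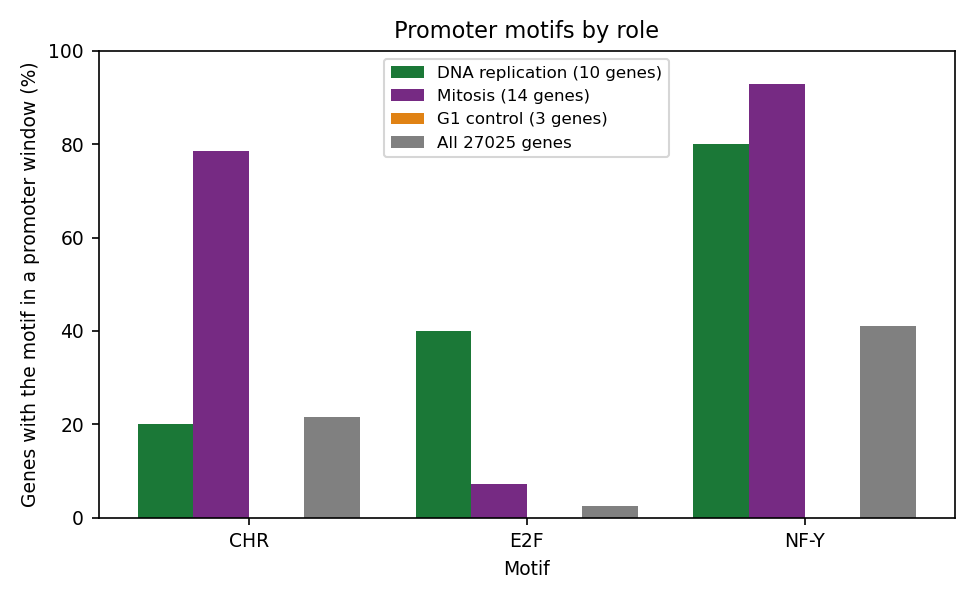
Share of genes (y axis, percent) with CHR, E2F or NF-Y letters (x axis) in a promoter window, for replication, mitosis and G1 members and for all genes with a window. CHR letters were in 78.6% of the mitosis genes and 20.0% of the replication genes, and the bars of the 3 G1 genes are at 0.

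Levels are given in FPKM, which divide the fragments of a gene by its transcript length and by the size of the library, so that genes can be compared. Such values hold no read totals, and the depth behind them is unknown. The libraries summed to between 797690 and 820500 FPKM, with 10614 to 10945 genes at 1 FPKM or more. Hepatocyte markers were abundant in every liver, the 8 of them summing to between 64438 and 80220 FPKM. Heg1 itself had 0.48 and 0.35 FPKM in the controls against 0.45, 0.43 and 0.50 FPKM in the knockouts. These overlap. They check the labels only weakly, because endothelial cells are a minority in liver and the sources used here do not give the floxed exons. Markers of erythroid cells summed to 138 and 150 FPKM in the controls against 1333, 247 and 144 FPKM in the knockouts 1, 2 and 3. The excess in knockout 1 was in the 4 globin genes, while Alas2 (93.49 FPKM against 58.43 to 75.71 in the other livers) and Klf1 (4.01 against 2.59 to 3.85) differed little. Markers of neutrophils and of B and plasma cells were instead highest in knockout 2, at 9.70 and 11.2 FPKM against 5.99 and 7.16 in knockout 1. T and NK cell markers, which could bring in transcripts of dividing lymphocytes, summed to between 1.58 and 4.50 FPKM and were highest in knockout 1. Of the erythroid markers, Slc4a1, the anion exchanger of red cells, was at 0 in 4 livers and at 0.05 FPKM in knockout 1. In whole liver, fewer cells of a type and less RNA per cell cannot be told apart.

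The 33 genes split by role in their level. A mean of at least 1 FPKM over the 5 livers was reached by 14 of the 33 genes (42.4%), against 32.2% of all rows. These were 10 of 11 replication genes, 1 of 17 mitosis genes (Birc5) and 3 of 5 G1 genes. The value exceeded 1 FPKM in all 5 livers for 9 genes, which were Tk1, Pcna, Tyms, Mcm7, Rrm1, Rrm2, Mcm3, Mcm6 and Ccnd1. It exceeded 1 FPKM in some livers only for 8 genes, with Mcm4 and Ccne1 above it in 4 livers, Birc5, Cdk1 and E2f1 in 3, Mcm5 and Cdkn1a in 2 and Aurka in 1. The remaining 16 genes stayed at or below 1 FPKM in every liver. They were Mcm2, Ccne2 and 14 mitosis genes, namely Mki67, Top2a, Ccnb1, Ccnb2, Ccna2, Cdc20, Bub1, Bub1b, Aurkb, Plk1, Cenpe, Cenpf, Kif11 and Kif20a. The median of the gene means was 2.85 FPKM for replication, 0.22 FPKM for mitosis and 1.27 FPKM for G1 control. Nearest to a mean of 1 FPKM were Mcm5 (1.03) and Birc5 (1.03) above it and Cdk1 (0.98) below it.

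**Figure D2:**
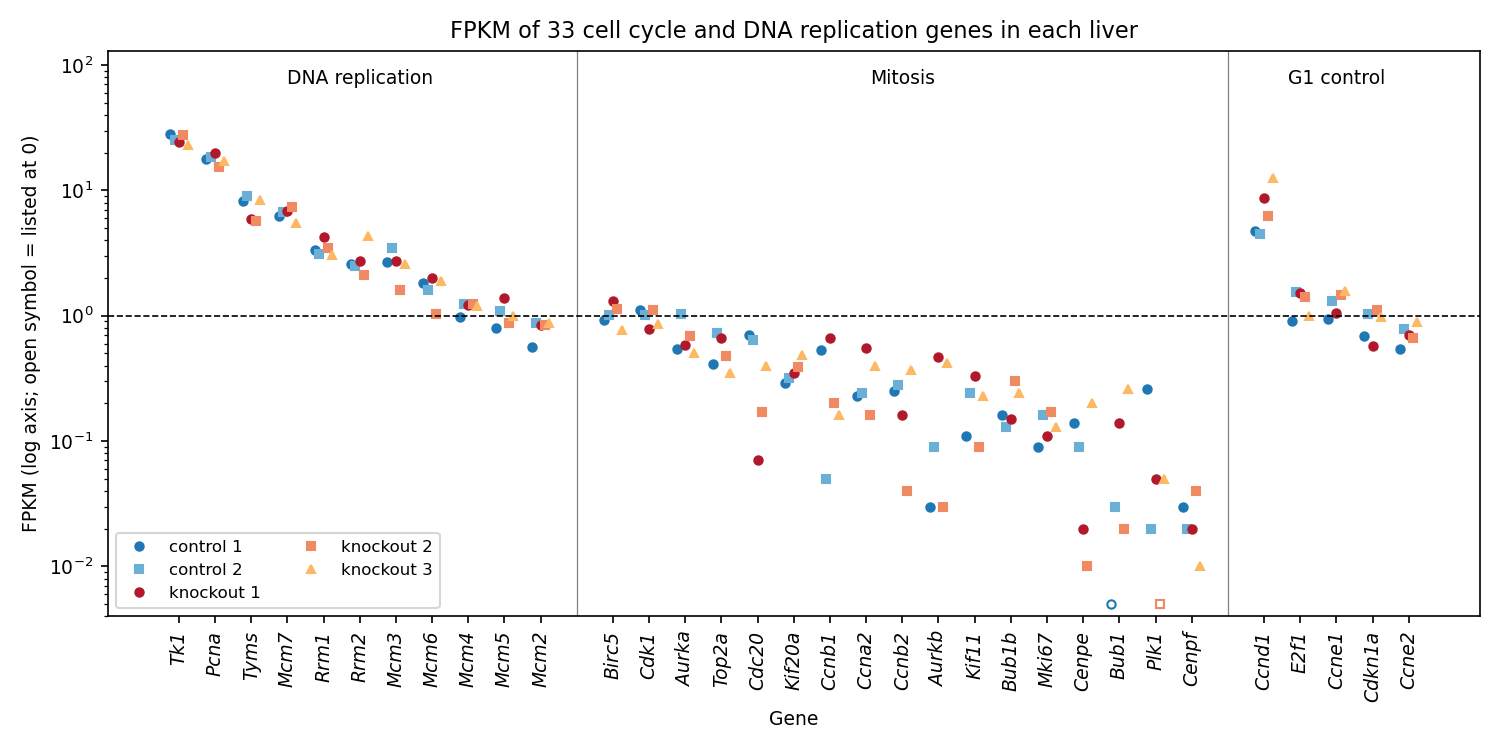
FPKM on a log axis (y) of each of the 33 genes (x), ordered by mean within replication, mitosis and G1 control, with 1 point per liver and a dashed line at 1 FPKM. Replication genes lie mostly above the line and mitosis genes mostly below it, and open symbols mark the 2 values listed at 0, Bub1 in control 1 and Plk1 in knockout 2.

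Knockout and control livers did not differ detectably in these genes. With limma on log2(FPKM + 1), adjusted by the Benjamini-Hochberg method over the 10820 genes with a mean of at least 1 FPKM, 0 of the 14 genes tested passed an adjusted p of 0.05, as did 0 of all genes (percent called 0). Members between 0.1 and 1 FPKM were read from the same fit over 14401 genes with a mean of at least 0.1 FPKM, where 0 of 29 members and 0 of all genes passed (percent called 0). At an unadjusted p below 0.05 there was 1 of the 14 members, Ccnd1, against 757 genes or 7% of all 10820 genes (5.29% higher and 1.71% lower). With the wider filter there were 2 of 29, Ccnd1 higher and Cdc20 lower, against 920 genes or 6.39% of 14401 genes (4.57% higher and 1.82% lower). The 4 members with means under 0.1 FPKM, Bub1, Plk1, Cenpe and Cenpf, were not tested.

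The direction of the genes was mixed. Of the 14 members tested, 9 had positive and 5 negative log2 fold changes (knockout minus control), a share of 64.3% against 64.2% of all 10820 genes. Their median was 0.064, and that of all genes 0.061. That sign depended on scaling, since the member median was 0.024 when FPKM were scaled by median-of-ratios and -0.011 when they were quantile normalized. The medians of all genes were then -0.0073 and -0.0021. Among the 29 members with at least 0.1 FPKM, the values of the groups did not overlap for 2 that were higher (Ccnd1 and Kif20a) and 1 that was lower (Cdc20). After median-of-ratios scaling there were 2 higher and 3 lower. Over all 14401 genes this held for 24% (17.8% higher and 6.23% lower, or 1632 higher and 1669 lower genes after median-of-ratios scaling against 2565 and 897 without). Leaving out 1 library leaves fewer values to overlap. Without control 1 the members not overlapping were 11 (50.6% of all genes), without control 2 they were 12 (51.9%), without knockout 1 they were 7 (38.6%), without knockout 2 they were 10 (36.9%) and without knockout 3 they were 8 (35.9%).

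**Figure D3:**
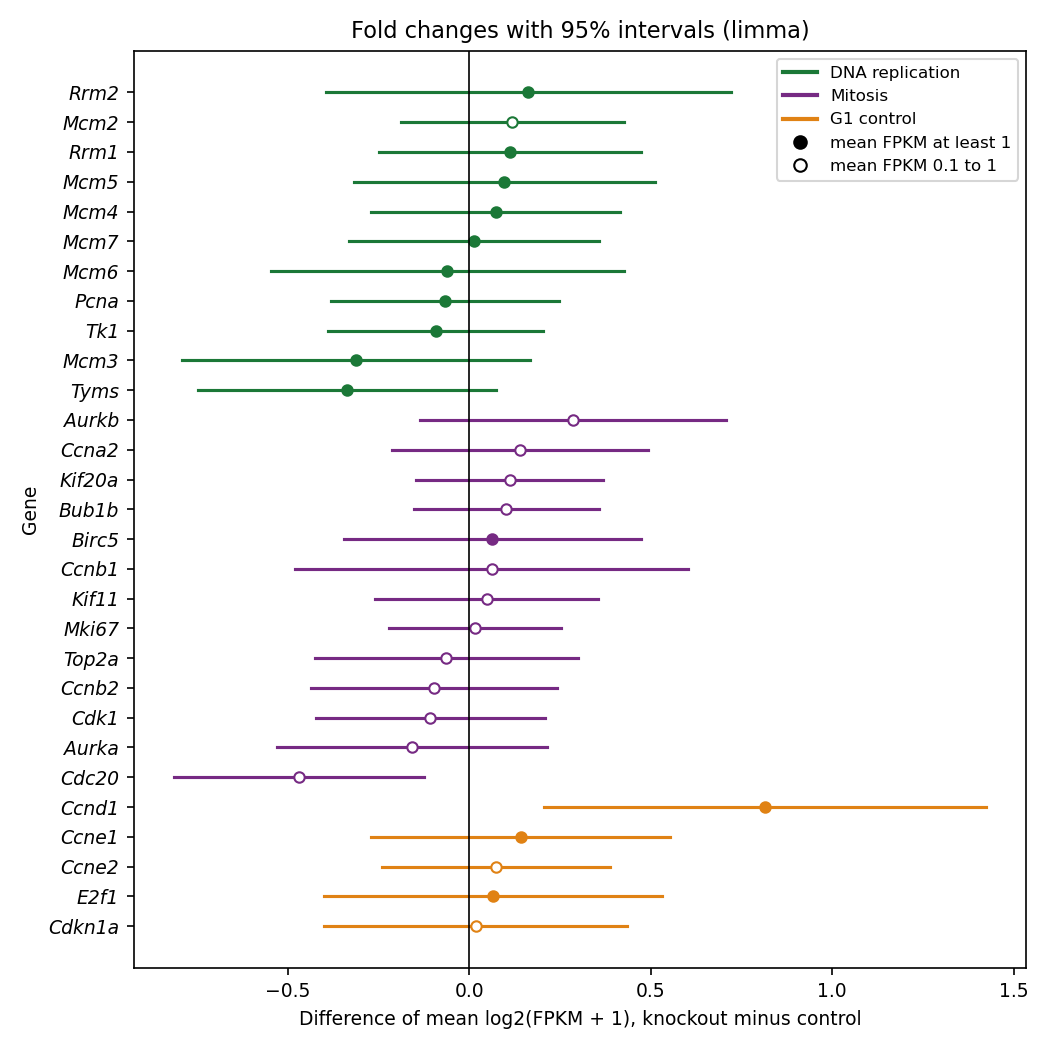
Difference of mean log2(FPKM + 1), knockout minus control (x axis), with its 95% interval from limma for each of the 29 members tested (y axis), coloured by role and filled where the mean is at least 1 FPKM. The intervals of Ccnd1 (0.21 to 1.42) and Cdc20 (-0.81 to -0.13) lie to 1 side of 0 before adjustment, and the other 27 span 0.

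The helicase genes Mcm2 to Mcm7 encode the 6 subunits of 1 ring, yet their mean levels ran from 0.80 FPKM for Mcm2 to 6.52 FPKM for Mcm7. Mcm7 had 6.26 and 6.66 FPKM in the controls against 6.86, 7.36 and 5.47 FPKM in the knockouts. The knockouts lay on both sides of the controls, and the log2 fold change was 0.012 (SE 0.14, limma adjusted p = 0.989). The exons of Mcm7 (chromosome 5, 138164583 to 138172422, mm10) share 321 bases with Ap4m1 and 64 with Cops6 on the other strand. The sources used here do not say whether reads were counted by strand, and reads from shared bases could belong to either gene. Ap4m1, a subunit of an adaptor complex of vesicle traffic, had 4.29 and 2.78 FPKM in the controls against 6.96, 7.35 and 4.63 FPKM in the knockouts.

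Mcm3 had 2.67 and 3.46 FPKM in the controls against 2.71, 1.60 and 2.58 FPKM in the knockouts. Knockout 2 was the lowest of the 5 and the other knockouts lay at the level of control 1, with a log2 fold change of -0.31 (SE 0.20, limma adjusted p = 0.769). It was -0.15 without knockout 2 and -0.17 without control 2. Mcm6 had 1.82 and 1.61 FPKM in the controls against 1.99, 1.04 and 1.88 FPKM in the knockouts, again with knockout 2 lowest. Mcm4 had 0.97 and 1.25 FPKM in the controls against 1.22, 1.23 and 1.19 FPKM in the knockouts. Mcm5 had 0.80 and 1.09 FPKM in the controls against 1.38, 0.88 and 0.99 FPKM in the knockouts. The groups overlapped for both genes, with log2 fold changes of 0.072 and 0.096. Mcm2 had 0.56 and 0.87 FPKM in the controls against 0.84, 0.85 and 0.87 FPKM in the knockouts, where control 1 stood below the rest.

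Pcna, the sliding clamp that also serves DNA repair, had 17.94 and 18.41 FPKM in the controls against 19.80, 15.23 and 17.14 FPKM in the knockouts. The difference on the log2 scale was -0.068 (SE 0.13; 95% interval, -0.38 to 0.25) and the limma adjusted p 0.910. Tk1, the thymidine kinase of the salvage pathway, was the most abundant member, with 28.34 and 25.06 FPKM in the controls against 24.20, 27.89 and 22.93 FPKM in the knockouts. The groups overlapped, with a log2 fold change of -0.093 (SE 0.12, limma adjusted p = 0.870), which ran from -0.18 without control 2 to -0.0076 without control 1. Tk1 (chromosome 11, 117815526 to 117826092, minus strand, mm10) shares 83 bases of exon with Afmid, an arylformamidase of tryptophan breakdown on the other strand. Afmid averaged 72.3 FPKM and ranged from 60.56 to 86.46 FPKM.

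Tyms, the thymidylate synthase, had 8.18 and 8.94 FPKM in the controls against 5.87, 5.74 and 8.34 FPKM in the knockouts. Knockouts 1 and 2 lay below both controls and knockout 3 between them. Its fold change was -0.34 on the log2 scale (SE 0.17), the 95% interval ran from -0.75 to 0.074 and limma's adjusted p was 0.722. Rrm1, the large subunit of ribonucleotide reductase, had 3.36 and 3.11 FPKM in the controls against 4.25, 3.50 and 3.05 FPKM in the knockouts. Its partner Rrm2, the subunit whose level follows S phase, had 2.58 and 2.49 FPKM in the controls against 2.72, 2.12 and 4.33 FPKM in the knockouts. The high value of knockout 3 carried the positive log2 fold change of 0.16 (SE 0.23, limma adjusted p = 0.877), which was -0.053 without that library. Over all 11 replication genes the summed FPKM was 73.5 and 73.0 in controls and 71.8, 67.4 and 68.8 in knockouts. Tk1 and Pcna make up most of that sum. The mean of log2(FPKM + 1) per gene, which weights genes equally, overlapped, at -0.019 and 0.052 in the controls against 0.058, -0.12 and 0.029 in the knockouts, relative to the mean of the 5 livers. Knockout 2 was the lowest liver for 5 of the 11, and control 1 and knockout 3 for 3 each. Knockout 2 also had the lowest FPKM sum over all rows (797690). How many of all genes were lowest in that liver was not counted.

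Mitosis genes were near the lower end of the measured range in every liver. Mki67, the proliferation marker Ki-67, had 0.09 and 0.16 FPKM in the controls against 0.11, 0.17 and 0.13 FPKM in the knockouts. The difference was 0.015 on the log2 scale (SE 0.098, 95% interval -0.22 to 0.25, limma adjusted p = 0.980). Top2a, the topoisomerase that untangles chromosomes, had 0.41 and 0.73 FPKM in the controls against 0.67, 0.48 and 0.35 FPKM in the knockouts. Both genes overlapped between the groups. Birc5 (survivin), the only mitosis gene with a mean above 1 FPKM, had 0.93 and 1.01 FPKM in the controls against 1.31, 1.13 and 0.77 FPKM in the knockouts. Cdk1 had 1.12 and 1.01 FPKM in the controls against 0.78, 1.12 and 0.86 FPKM in the knockouts. Their log2 fold changes were 0.063 and -0.11, with limma adjusted p of 0.940 and 0.874, and that of Cdk1 ran from -0.18 without knockout 2 to -0.056 without knockout 1.

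The cyclins that pair with CDK1 and CDK2 in G2 and mitosis varied between livers without following genotype. Ccnb1 had 0.53 and 0.05 FPKM in the controls against 0.66, 0.20 and 0.16 FPKM in the knockouts. Ccnb2 had 0.25 and 0.28 FPKM in the controls against 0.16, 0.04 and 0.37 FPKM in the knockouts. The controls of Ccnb1 differed more from each other than the group means did. Ccna2 had 0.23 and 0.24 FPKM in the controls against 0.55, 0.16 and 0.40 FPKM in the knockouts. Knockouts 1 and 3 were above and knockout 2 below the controls, and 510 bases of its exons are shared with Exosc9 on the other strand, which averaged 6.58 FPKM.

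Cdc20, which activates the anaphase-promoting complex, was the only member whose knockouts all lay below the controls. It had 0.70 and 0.64 FPKM in the controls against 0.07, 0.17 and 0.40 FPKM in the knockouts, a ratio of group means of 0.318. The log2 fold change was -0.47 (SE 0.14), with a limma adjusted p of 0.766 over 14401 genes. It was -0.74 with a pseudocount of 0.5 and -1.44 with 0.1. All 5 values are below 1 FPKM. Cdc20 (chromosome 4, 118432901 to 118437352, minus strand, mm10) shares 53 bases of exon, 2.84% of its own, with Elovl1, a fatty acid elongase on the other strand. Elovl1 had 27.83 and 30.15 FPKM in the controls against 40.88, 33.99 and 36.33 FPKM in the knockouts, the opposite direction to Cdc20.

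Spindle checkpoint and kinase genes were scattered. Aurkb, the kinase of the chromosomal passenger complex, had 0.03 and 0.09 FPKM in the controls against 0.47, 0.03 and 0.42 FPKM in the knockouts. Bub1, a checkpoint kinase, was listed at 0 and 0.03 FPKM in the controls against 0.14, 0.02 and 0.26 FPKM in the knockouts. In both, knockouts 1 and 3 were above the controls and knockout 2 was not. The log2 fold change of Aurkb was 0.28 (SE 0.17, limma adjusted p = 0.794), and 0.45 without knockout 2. Bub1b had 0.16 and 0.13 FPKM in the controls against 0.15, 0.30 and 0.24 FPKM in the knockouts. Aurka, the kinase of the spindle poles, had 0.54 and 1.04 FPKM in the controls against 0.58, 0.69 and 0.50 FPKM in the knockouts. Control 2 stood above all other livers for Aurka. Plk1 was at 0.26 and 0.02 FPKM in the controls against 0.05, 0 and 0.05 FPKM in the knockouts.

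The kinesin genes Kif11 and Kif20a and the kinetochore genes Cenpe and Cenpf complete the group. Kif11, the motor that separates the spindle poles, had 0.11 and 0.24 FPKM in the controls against 0.33, 0.09 and 0.23 FPKM in the knockouts. Kif20a, a kinesin of cytokinesis, had 0.29 and 0.32 FPKM in the controls against 0.35, 0.39 and 0.49 FPKM in the knockouts. The Kif20a groups did not overlap, with a log2 fold change of 0.11 (SE 0.11, limma adjusted p = 0.848), which was 0.070 without knockout 3 and 0.32 with a pseudocount of 0.1. Cdc23, a subunit of the anaphase-promoting complex on the other strand, shares 29.3% of the exon bases of Kif20a and averaged 5.75 FPKM. Cenpe ranged from 0.01 to 0.20 FPKM and Cenpf from 0.01 to 0.04 FPKM. Summed over the 17 mitosis genes the livers had 5.82 and 6.10 FPKM in the controls against 6.42, 5.04 and 5.84 FPKM in the knockouts, which overlap. Knockout 1, the liver with the most globin transcripts, was highest for 5 of the 17 and lowest for 2. Knockout 2 was highest for 3 and lowest for 5, and knockout 3 highest for 4 and lowest for 4. Controls 1 and 2 were highest for 2 each and lowest for 3 and 2. The part of blood cells in these values was not tested.

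On the log2(FPKM + 1) scale, cyclin D1 had the largest difference of the 29 members tested. By ratio of means, members under 1 FPKM such as Bub1, Aurkb, Plk1 and Cdc20 differed more, and with a pseudocount of 0.1 Cdc20 (-1.44) and Aurkb, which was higher in the knockouts, differed by more than Ccnd1 (0.92). Ccnd1, which couples growth signals to CDK4 and CDK6, had 4.74 and 4.49 FPKM in the controls against 8.71, 6.27 and 12.64 FPKM in the knockouts. All 3 knockouts were above both controls, and they differed from each other by more than the controls did. The group means were 4.62 ± 0.18 FPKM (SD, n = 2) and 9.21 ± 3.21 FPKM (SD, n = 3), a ratio of 1.99. On the log2 scale the difference was 0.81 (SE 0.25), and its 95% interval ran from 0.21 to 1.42. The unadjusted p was 0.0163, and limma's adjusted p over 10820 genes was 0.700. It was thus not called, and ranged from 0.58 without knockout 3 to 1.04 without knockout 2. Over the alternatives tried, the adjusted p of Ccnd1 lay between 0.446 and 0.912.

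Ccnd1 (ENSMUSG00000070348.5, chromosome 7, 144929931 to 144939925, minus strand, mm10) shares 1100 bases of exon, 23.4% of its own, with LTO1 on the other strand. LTO1 had 9.02 and 7.80 FPKM in the controls against 12.58, 9.38 and 8.19 FPKM in the knockouts. Knockout 3, the highest for Ccnd1, lay between the controls for LTO1. Of 6 markers of cholangiocytes, the cells that line the bile ducts, 2 separated the groups, Spp1 and Sox9, both higher in the knockouts. Over all 14401 genes with a mean of at least 0.1 FPKM, 24% separated the groups (17.8% higher and 6.23% lower). The 6 genes summed to 29.7 and 40.7 FPKM in the controls against 72.6, 51.3 and 55.3 FPKM in the knockouts. Most of that sum was Spp1 (osteopontin), with 25.95 and 38.38 FPKM in the controls against 66.42, 47.79 and 50.42 FPKM in the knockouts, and the sum separates the groups through it. The defining duct keratin Krt19 had 1.44 and 0.72 FPKM in the controls against 2.11, 1.16 and 1.87 FPKM in the knockouts, which overlap, as did Krt7, Epcam and Cftr. Knockout 1 was highest for Spp1, Sox9, Krt19, Epcam and Cftr. Krt7 was highest in knockout 3 (0.91 FPKM, against 0.45 in knockout 1), as was Ccnd1. The part of bile duct cells in the Ccnd1 values was not tested.

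**Figure D4:**
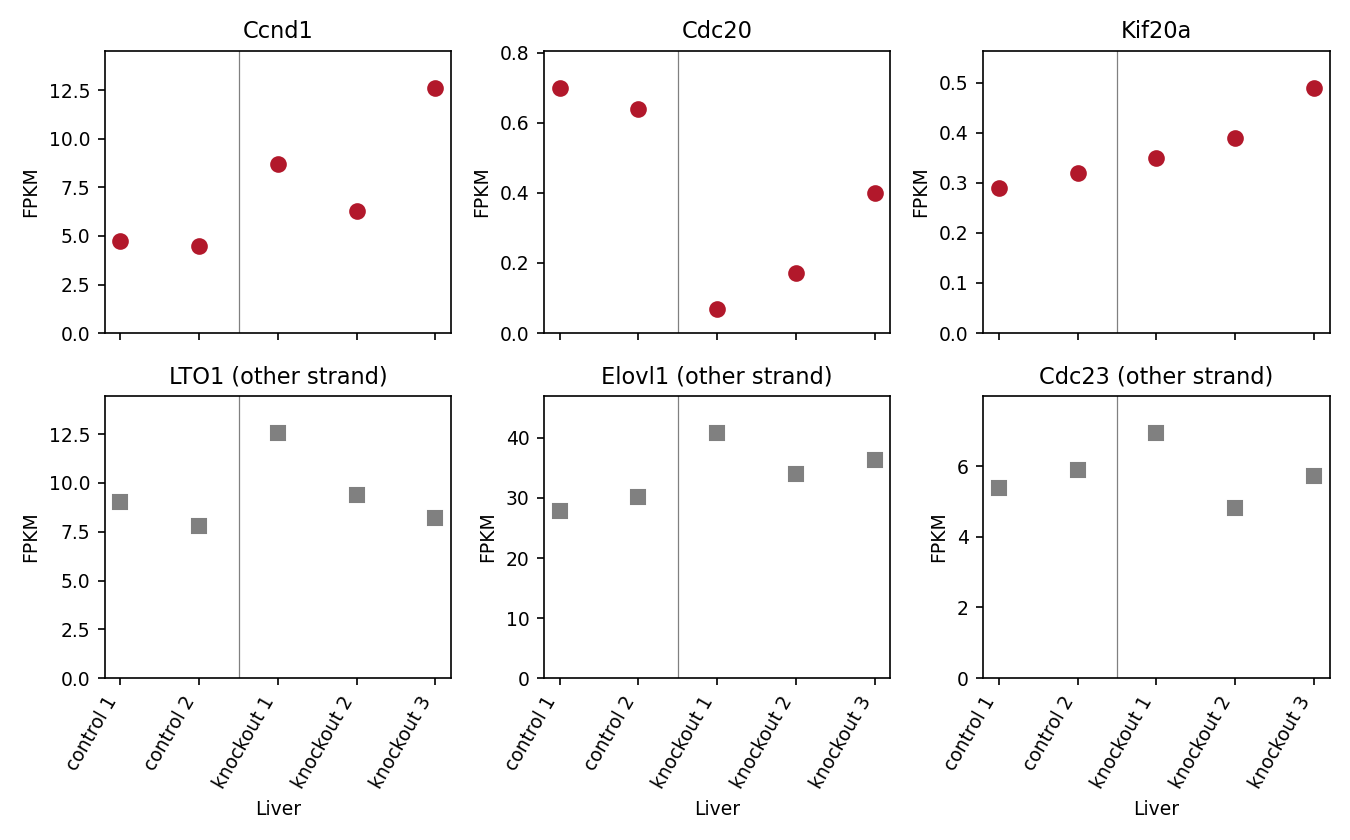
FPKM (y axis, from 0) in each liver (x axis) of Ccnd1, Cdc20 and Kif20a, the 3 members whose groups do not overlap, above the gene whose exons overlap each on the other strand. Ccnd1 reaches 12.64 FPKM in knockout 3, where LTO1 has 8.19, and Elovl1 is higher in the knockouts where Cdc20 is lower.

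The other G1 genes overlapped between the groups. Ccne1, the E-type cyclin that starts S phase with CDK2, had 0.95 and 1.32 FPKM in the controls against 1.05, 1.45 and 1.57 FPKM in the knockouts. Ccne2, its relative, had 0.54 and 0.79 FPKM in the controls against 0.70, 0.66 and 0.89 FPKM in the knockouts. Both overlapped, with log2 fold changes of 0.14 and 0.074 (limma adjusted p of 0.856 and 0.909), and that of Ccne1 ran from 0.016 without control 1 to 0.27 without control 2. Ccne2 shares 609 bases of exon, 17.4% of its own, with Ints8 on the other strand, which averaged 5.69 FPKM. E2f1 had 0.90 and 1.54 FPKM in the controls against 1.53, 1.41 and 0.99 FPKM in the knockouts. Cdkn1a had 0.69 and 1.03 FPKM in the controls against 0.57, 1.12 and 0.98 FPKM in the knockouts, with a difference of 0.018 on the log2 scale (95% interval -0.40 to 0.44). All 5 G1 genes had positive log2 fold changes on the deposited scale (share above 0 among all 14401 genes 63.8%), but E2f1 and Cdkn1a were negative after quantile normalization, and Cdkn1a also after median-of-ratios scaling.

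Further genes of the same processes were described from 4 lists, and none passed over all genes in either direction. Among 34 genes of replication origins and forks, 23 had a mean of at least 1 FPKM. Of these 11 had positive and 12 negative log2 fold changes (47.8% positive, against 64.2% of all 10820 genes). Their median was -0.013, against 0.061 for all genes. It was -0.082 after median-of-ratios and -0.096 after quantile scaling, against -0.0073 and -0.0021 for all genes. The groups did not overlap for 1 higher and 3 lower genes, against 25.3% of all 10820 genes (18.9% higher and 6.38% lower). Among these 23, the smallest unadjusted p belonged to Rfc5, Rfc3 and Cdt1. Rfc5, a subunit of the complex that loads PCNA, had 3.72 and 5.34 FPKM in the controls against 2.62, 2.75 and 3.16 FPKM in the knockouts, all below either control (limma adjusted p = 0.70). Its log2 fold change of -0.51 was -0.30 without control 2. Rfc3, another subunit of that loader, had 3.39 and 3.87 FPKM in the controls against 2.39, 1.85 and 3.25 FPKM in the knockouts. Cdt1, which loads the MCM ring, had 1.08 and 0.74 FPKM in the controls against 1.03, 1.91 and 1.69 FPKM in the knockouts, which overlap.

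Among 34 spindle and kinetochore genes only 7 had a mean of at least 1 FPKM. Of these 2 had positive and 5 negative log2 fold changes (28.6% positive, against 64.2% of all 10820 genes). Their median was -0.053, against 0.061 for all genes. It was -0.11 after median-of-ratios and -0.14 after quantile scaling, against -0.0073 and -0.0021 for all genes. With the filter of 0.1 FPKM the lean was not seen. There 15 of 27 were positive (55.6%, against 63.8% of all 14401 genes), with a median of 0.014 against 0.058 for all genes. Spc25, a subunit of the NDC80 kinetochore complex, had 3.11 and 4.59 FPKM in the controls against 2, 2.58 and 2.42 FPKM in the knockouts. Cenpa, the centromeric histone, had 2.32 and 3.27 FPKM in the controls against 3.51, 3.96 and 3.45 FPKM in the knockouts. The groups of these 2 genes did not overlap, in opposite directions, with limma adjusted p of 0.700 and 0.722. They were the only 2 of the 7 that did not overlap, against 25.3% of all 10820 genes. Mad2l1, a spindle checkpoint gene, had 0.84 and 6.46 FPKM in the controls against 0.96, 1.60 and 0.77 FPKM in the knockouts. Control 2 alone was high, and the log2 fold change of -0.83 became 0.18 without it.

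Among 30 cyclin, CDK, inhibitor, RB and E2F genes 23 had a mean of at least 1 FPKM, 18 with positive and 5 with negative log2 fold changes (78.3% positive, against 64.2% of all 10820 genes). Their median was 0.14, against 0.061 for all genes. After median-of-ratios and quantile scaling it was 0.079 and 0.072, against -0.0073 and -0.0021 for all genes. With either scaling 15 of 23 were positive, against 48.4% and 49.4% of all genes. The groups did not overlap for 8 higher and 0 lower genes, against 18.9% higher and 6.38% lower over all genes. After median-of-ratios scaling these were 5 and 1, when all genes gave 1185 higher and 1417 lower. E2f6, a repressor of the E2F family, had 5.33 and 5.72 FPKM in the controls against 7.44, 7.24 and 6.74 FPKM in the knockouts. Cdkn1c, the CDK inhibitor p57, had 0.86 and 1.24 FPKM in the controls against 1.57, 1.75 and 1.41 FPKM in the knockouts. Cdk7, the kinase that activates other CDKs, had 5.80 and 5.03 FPKM in the controls against 6.82, 6.63 and 6.34 FPKM in the knockouts. In these genes 3 of 3 knockouts exceeded both controls, with log2 fold changes of 0.32, 0.33 and 0.25 and limma adjusted p of 0.700, 0.718 and 0.718. The value of Cdkn1c was 0.20 without control 1 and 0.56 with a pseudocount of 0.1, and that of Cdk7 was 0.16 without control 2 or with quantile scaling.

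Among 24 p53 targets other than Cdkn1a, 18 had a mean of at least 1 FPKM. Of these 12 had positive and 6 negative log2 fold changes (66.7% positive, against 64.2% of all 10820 genes). Their median was 0.048, against 0.061 for all genes. The groups did not overlap for 4 higher and 2 lower of the 18, against 25.3% of all 10820 genes. The median was -0.014 after median-of-ratios and -0.027 after quantile scaling, against -0.0073 and -0.0021 for all genes. Bbc3, which encodes the cell death protein PUMA, had 2.24 and 2.36 FPKM in the controls against 6.07, 5.70 and 3.71 FPKM in the knockouts. Btg2, an antiproliferative gene, had 3.80 and 4.01 FPKM in the controls against 5.49, 5.53 and 5.34 FPKM in the knockouts. Trp53inp1, a p53-induced gene, went the other way, with 12.45 and 13.82 FPKM in the controls against 9.65, 7.08 and 4.86 FPKM in the knockouts. These 3 were taken for their small p, none overlapped between the groups, and their limma adjusted p were 0.675, 0.700 and 0.700. Cdkn1a, the p53 target among the members, overlapped.

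**Figure D5:**
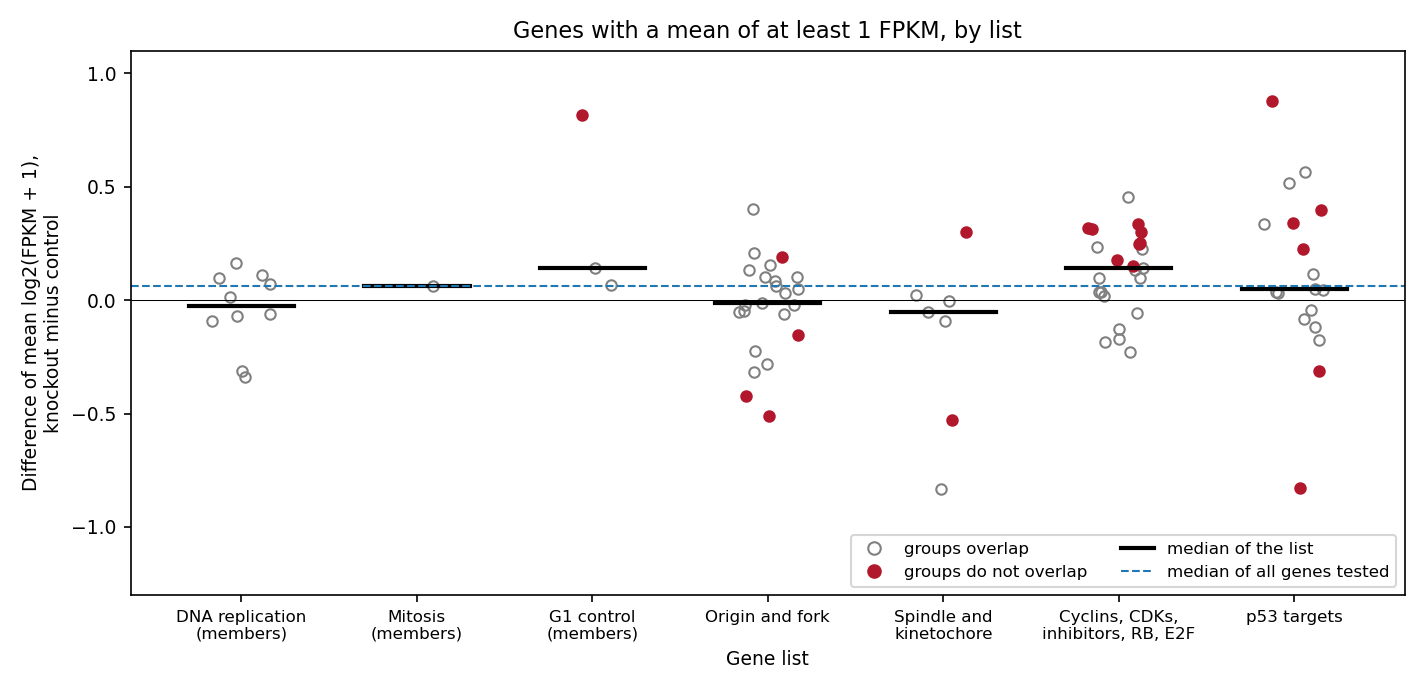
Difference of mean log2(FPKM + 1), knockout minus control (y axis), of each gene with a mean of at least 1 FPKM, by list (x axis), with the list's median as a bar and that of all 10820 genes as a dashed line at 0.061. Filled points are genes whose groups do not overlap, among them Ccnd1 at 0.81 in the G1 members and 8 genes of the cyclin, CDK, RB and E2F list.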

How the data were processed

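FPKM per gene symbol were deposited by the authors for 5 libraries, rounded to 2 decimals, in 2 tables whose 33589 rows held identical values. HISAT2, StringTie, DESeq2 and the mm10 build are named, without versions or roles, per the submitters' processing notes. Depth is unknown. In single-exon genes, between 34.2% and 36.9% of low values lay within 0.1 of a whole number of reads at the best step, so reads were not recovered.

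Groups came from the labels, which do not state that the libraries come from separate animals, and the p-values then reflect only the spread among the libraries at hand. limma 3.58.1 (R 4.3.3, trended prior variance, two-sided) was fitted to log2(FPKM + 1) with genotype as the only term over genes with a mean of at least 1 FPKM, and was tested on simulated data. Members between 0.1 and 1 FPKM were read from the same fit with a filter of 0.1. Fold changes on this scale understate those of low genes. Not overlapping means that every knockout value lies on one side of every control value. The members and lists were chosen with earlier results of these data known. All members are given, and of each further list the 3 genes with the smallest unadjusted p among those with a mean of at least 1 FPKM. Positions and exon overlaps came from GENCODE M21 (GRCm38, also called mm10). An erythroid marker of the lists is not reported here and was left out of their sums. Alternatives were the pseudocount, filter, scaling, library weights, prior variance, a replicate block and leaving out each library.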

Additional observations from a re-analysis of the deposited data

How the results depend on the processing

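Of the alternatives tried, none called a member. Over all genes 0 were called as deposited, between 0 and 1 when 1 library was left out, and 5 with a replicate block. The labels do not say that equal numbers mean a shared litter or day, so the block is not the design. Deviations of same-numbered livers from their group mean correlated at 0.227 and 0.196. With 2 controls, the deviations of 1 are the reverse of the other's. Control 2 with knockout 1 thus gave -0.227 and control 1 with knockout 2 gave -0.196. These values therefore cannot decide whether equal numbers share an effect. The member median of 0.064 was -0.068 at a filter of 5 FPKM, which leaves 5 members, and ran from -0.020 to 0.081 when 1 library was left out. Signs turned for Mcm7 (-0.056 with median-of-ratios, -0.071 with quantile scaling, -0.0021 with library weights), Cdkn1a (-0.018 with median-of-ratios, -0.050 with quantile, -0.022 with the block), Mki67 (-0.016), Birc5 (-0.0093) and E2f1 (-0.012) with quantile scaling, and Rrm2 (-0.053) and Top2a (0.0095) with the block. The causes were not tested. Leaving out 1 library turned the sign of Mcm2 (-0.013 to 0.25), Mcm4 (-0.024 to 0.17), Mcm5 (-0.012 to 0.20), Mcm6 (-0.16 to 0.11), Mcm7 (-0.065 to 0.12), Pcna (-0.16 to 0.019), Rrm2 (-0.053 to 0.33), Mki67 (-0.030 to 0.060), Top2a (-0.21 to 0.084), Ccnb1 (-0.21 to 0.33), Aurka (-0.36 to 0.044), Kif11 (-0.032 to 0.13), Ccne2 (-0.035 to 0.18), Cdkn1a (-0.11 to 0.15), E2f1 (-0.14 to 0.27) and Mad2l1 (-1.84 to 0.18). Ccnd1 stayed positive and Tyms negative in each alternative run. Other members also kept their sign wherever they were tested. These were Rrm1, Ccna2, Bub1b, Aurkb, Kif20a and Ccne1 (positive) and Mcm3, Tk1, Ccnb2, Cdk1 and Cdc20 (negative). The leave-one-out counts of members not overlapping were added after seeing the data. At a few hundredths of an FPKM the rounding to 2 decimals limits what can be seen.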

Other observations

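The other D-type cyclins and their kinase, chosen after their values were seen, were set beside Ccnd1. Ccnd2 had 1.08 and 1.04 FPKM in the controls against 2.01, 1.24 and 1.18 FPKM in the knockouts. It was above both controls in 3 of 3 knockouts (limma adjusted p = 0.783), as were 18.9% of all 10820 genes. Ccnd3 was the most abundant of the 3 D-type cyclins, with 20.59 and 19.48 FPKM in the controls against 18.62, 20.12 and 16.18 FPKM in the knockouts, which overlap. Cdk4 had 25.70 and 20.86 FPKM in the controls against 26.56, 23.84 and 26.17 FPKM in the knockouts, which overlap too.

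Pttg1 (securin), a mitotic regulator chosen after its values were seen, had between 31.71 and 40.17 FPKM, while Mki67 stayed at or below 0.17 FPKM in the same livers. Mcm10, of the origin and fork list, was higher still, with 73.09 to 125.02 FPKM. Orc1 and Cdc6 of that list averaged 0.022 and 0.064 FPKM. The cause of the Mcm10 level was not tested. Foxm1 and Mybl2, transcription factors of the mitotic program, were at most 0.21 and 0.28 FPKM. Rrm2b, the ribonucleotide reductase subunit of resting cells and a p53 target, was not among the 3 genes named for its list. It had 0.63 and 0.67 FPKM in the controls against 1.19, 0.75 and 0.92 FPKM in the knockouts. It was above both controls in 3 of 3 (limma adjusted p = 0.781 over 14401 genes), as were 17.8% of all 14401 genes.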
